A study of Arabidopsis thaliana with 12 samples.

Results

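The 6 genes described here, AT1G44920, AT3G47100, AT1G51080, AT1G01500, AT3G16760 and AT4G15840, are little-studied protein-coding genes of Arabidopsis thaliana that were selected on their normalized log2 fold in this comparison, because they read lower in the prors1 mutant than in the wild type (WT) after a night in darkness. Each is represented by 1 probe whose annotation names that gene alone. They are 6 of 691 genes with a probe of their own, on an array of 3439 probes. All 6 had values in enough columns to be tested. Because the choice rested on this comparison, their differences are given as descriptions and carry no p-value.

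The study set prors1 plants against WT plants of the Columbia 0 ecotype, and both groups were dark adapted overnight. The labels describe prors1 as a mutant without prolyl-tRNA synthetase. Total RNA gave 12 columns of values, 6 titled prors1 and 6 titled WT. By correlation the columns form close pairs (1 with 2, 3 with 4, 5 with 6 of either group). No label says which columns share an array. Each pair was taken as readings of the same array and averaged, so that every group has 3 arrays here. The array numbers and every n = 3 below rest on that inference. The source label of every sample reads WT, so the grouping rests on the titles. PRORS1 itself was named on 0 probes, so the mutated gene could not be used to check the titles. The labels name no plant age, organ or allele, and 0 of 15 marker genes for leaf, root, seed, guard cell, phloem and flower were named on any probe. No label says whether different arrays came from different plants, so the errors below describe the spread between arrays, which may be technical.

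Aminoacyl-tRNA synthetases attach an amino acid to its transfer RNA, and PRORS1 is the enzyme that supplies prolyl-tRNA for protein synthesis in both plastids and mitochondria. The genes of the organelles and those of the nucleus are coordinated by signals in both directions, and transcripts of nuclear genes are known to respond when organelle translation is disturbed. Such responses are best known for genes of photosynthesis, while the 6 genes here have had little attention. The gene table carries no symbol for any of them beyond the locus name, and no function is attributed to them here. By their locus names 3 lie on chromosome 1, 2 on chromosome 3 (AT3G47100 and AT3G16760) and AT4G15840 lies on chromosome 4. For AT3G16760 and AT4G15840 the table lists 2 transcripts each, which the probe may not separate. None of the genes directly beside them in the genome had a tested probe of its own (0 of 12).

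Relative to the other probes of the array, the 6 genes read 2.70 to 3.82 times lower in prors1 than in WT after quantile normalization, which gives every column the same distribution of values. The upper end is AT1G44920, a dim probe with a WT column listed at 0 that the folds leave out, and its log2 fold of -1.93 was -1.29 under cyclic loess and -0.74 with a pseudocount. On the deposited scale the differences were smaller, with prors1 at 0.509 to 0.731 of the WT level, where 0.731 is again AT1G44920 without that column. With the listed 0 counted, the deposited means of AT1G44920 were 0.0732 in prors1 and 0.0773 in WT. The scales differ in where the typical probe lies. The median log2 fold of all 2908 tested probes was 0.77 as deposited and -0.06 after quantile normalization. Column medians, taken over values above 0, were 0.407 to 0.520 for prors1 and 0.224 to 0.289 for WT. The 6 genes, with a median as-deposited log2 fold of -0.64, had lower values in prors1 while the typical probe had higher ones. Total intensity was 2632 to 3456 in prors1 columns and 2312 to 2840 in WT columns, and what the scale is relative to is unknown. In RNA of whole samples, fewer cells of a type and less RNA per cell cannot be told apart.

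AT3G16760 had the lowest as-deposited ratio of the 6, at 0.509 of the WT level. Its intensity was 0.526, 0.574 and 0.576 on prors1 arrays 1, 2 and 3, against 0.787, 1.48 and 1.14 on the WT arrays. All prors1 arrays lay below all WT arrays, and the prors1 arrays were close together while the WT arrays were spread. The mean was 0.559 ± 0.028 in prors1 and 1.13 ± 0.35 in WT (SD, n = 3 each). The log2 fold was -0.97 ± 0.30 as deposited and -1.53 ± 0.26 after quantile normalization (SE from limma, a linear model with a shared variance estimate).

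AT4G15840 had intensities of 0.428, 0.383 and 0.340 on the prors1 arrays, against 0.476, 0.693 and 0.656 on the WT arrays. The groups did not overlap, although WT array 1 lay just above prors1 array 1. The mean was 0.383 ± 0.044 in prors1 and 0.608 ± 0.12 in WT (SD, n = 3 each). Its normalized log2 fold was -1.43 ± 0.23 and its as-deposited one was -0.65 ± 0.28.

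AT1G01500 read 0.169, 0.131 and 0.139 on the prors1 arrays, against 0.183, 0.176 and 0.257 on the WT arrays. Again every prors1 array was below every WT array, by a narrow margin for WT arrays 1 and 2. The mean was 0.146 ± 0.020 in prors1 and 0.206 ± 0.045 in WT (SD, n = 3 each). The log2 fold was -1.57 ± 0.26 after quantile normalization and -0.47 ± 0.28 as deposited. Most of the normalized difference therefore came with the scaling. The same held for AT1G44920 (-1.93 normalized and -0.45 as deposited), AT1G51080 (-1.64 and -0.62), AT3G47100 (-1.64 and -0.77) and AT4G15840 (-1.43 and -0.65). It did not hold for AT3G16760 (-1.53 and -0.97).

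AT3G47100 read 0.311, 0.231 and 0.191 on the prors1 arrays, against 0.411, 0.564 and 0.292 on the WT arrays. Here the deposited intensities overlapped, because prors1 array 1 read above WT array 3. The mean was 0.244 ± 0.061 in prors1 and 0.422 ± 0.14 in WT (SD, n = 3 each). After quantile normalization the overlap was gone, with log2 values of -2.31, -2.71 and -2.72 in prors1 and -0.86, -0.77 and -1.20 in WT. The log2 fold was -1.64 ± 0.24 normalized and -0.77 ± 0.33 as deposited.

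AT1G51080 had intensities of 0.146, 0.179 and 0.249 on the prors1 arrays, against 0.214, 0.310 and 0.355 on the WT arrays. The groups overlapped, with prors1 array 3 above WT array 1, and array 3 was the highest in both groups. The mean was 0.192 ± 0.053 in prors1 and 0.293 ± 0.072 in WT (SD, n = 3 each). Its normalized log2 fold was -1.64 ± 0.37, with the widest error of the 6, and its as-deposited one was -0.62 ± 0.32. It was also the single gene of the 6 whose call (a limma adjusted p under 0.05) was lost when 1 array was left out: it did not pass without prors1 array 2 (log2 fold -1.62) or without WT array 3 (-1.41).

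AT1G44920 had the largest difference of the 6 under quantile normalization, the smallest under median scaling (-1.36) and cyclic loess (-1.29), and almost none in the deposited means with its listed 0 counted. It read 0.0629, 0.0802 and 0.0766 on the prors1 arrays, against 0.0760, 0.0651 and 0.0907 on the WT arrays. These values overlapped, and the means were 0.0732 ± 0.0091 in prors1 and 0.0773 ± 0.013 in WT (SD, n = 3 each). WT column 4 was listed at 0 and counts in that WT mean. The other column of the same array, WT column 3, read 0.130, the highest value of this gene in any column.

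With WT column 4 left out, the WT mean of AT1G44920 was 0.0990 ± 0.028 over its 3 arrays, against 0.0732 ± 0.0091 in prors1 (SD). WT arrays then ran from 0.0760 to 0.130 and prors1 arrays from 0.0629 to 0.0802, which still overlapped. The folds leave this column out: the log2 fold was -1.93 ± 0.31 after quantile normalization and -0.45 ± 0.30 as deposited. Columns of the same array differed by a median of 0.66 on the log2 scale for this gene, against 0.10 to 0.17 for the other 5 genes and 0.17 over 2867 probes with a value on every array. Its values lay near the low end of the scale, below the 10th percentile of the values above 0 in prors1 columns (0.143 to 0.183) and around that percentile in WT columns (0.0650 to 0.0778). With the listed 0 counted, the difference between its deposited means was smaller than the SD of either group. With that column left out, it was larger than the SD in prors1 and smaller than the SD in WT.

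**Figure D1:**
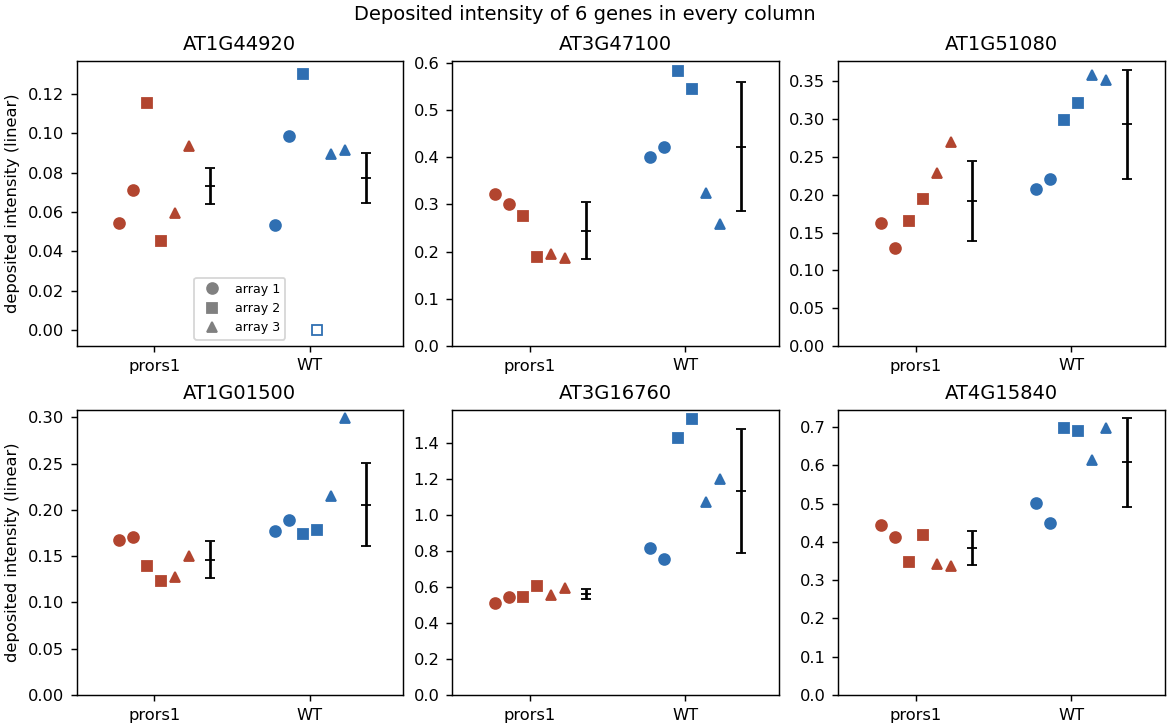
Deposited intensity (linear axis from 0, or just under it for AT1G44920) of the 6 genes in each of the 6 prors1 and 6 WT columns, with the marker shape giving the array and the black bar the mean ± SD over 3 arrays. The prors1 points lie below the WT points for AT3G16760, AT4G15840 and AT1G01500, while the groups overlap for the other 3, and the open square marks the AT1G44920 value listed at 0 in WT column 4.

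Position among the probes of the same column does not depend on the scale of that column, but it does depend on the other probes. Quantile normalization also works from the order of the values in a column. Positions are therefore no separate support for the folds on which the genes were chosen. All 3439 probes count here, and those listed at 0 count as lower. They numbered 412 to 474 per prors1 column and 423 to 519 per WT column. AT3G47100 stood above 36.4%, 29.3% and 27.5% of probes on the prors1 arrays, against 75.3%, 77.3% and 65.9% on the WT arrays. The difference between its group means was the widest of the 6, at -41.7 percentage points. AT1G51080 averaged 26.3 ± 8.3% in prors1 and 62.1 ± 10% in WT, and AT4G15840 averaged 47.3 ± 3.0% in prors1 and 82.7 ± 3.9% in WT (SD, n = 3 each). For these 3 genes a place in the upper part of the WT columns was a place near or below the middle of the prors1 columns.

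AT1G01500 stood above 21.0%, 20.4% and 20.4% of probes on the prors1 arrays, the tightest set of the 6, against 47.6%, 42.1% and 60.8% on the WT arrays. AT3G16760 stood above 64.3 ± 6.5% of probes in prors1 and 91.0 ± 2.4% in WT (SD, n = 3 each). AT1G44920 moved least, from the dim end of the columns: 15.7 ± 1.2% in prors1 and 22.3 ± 5.1% in WT, with the column listed at 0 counted. Without that column its prors1 arrays ran from 14.7% to 17.0% and its WT arrays from 25.1% to 32.8%, which did not overlap. Most probes below it in the prors1 columns were those listed at 0, so these positions are near the floor.

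**Figure D2:**
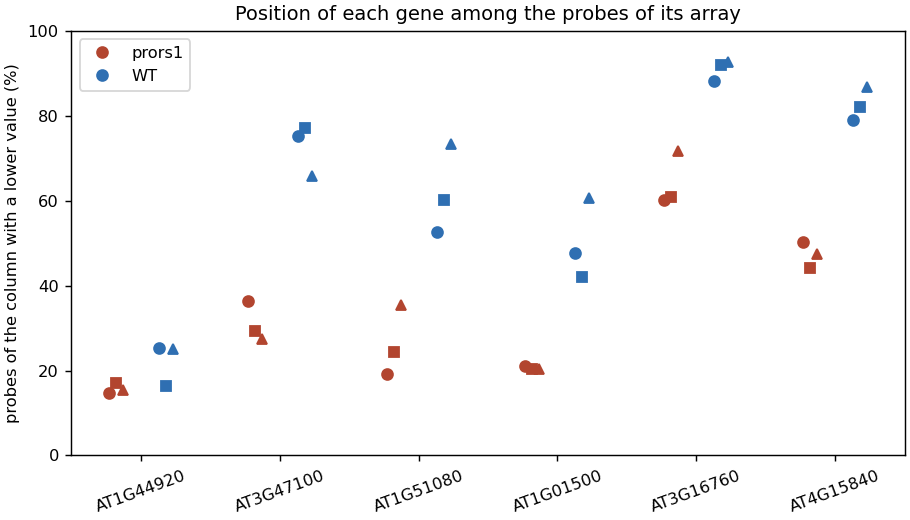
Share of the probes in the same column with a lower value (%, mean of the columns of an array) for the 6 genes on 3 prors1 arrays (red) and 3 WT arrays (blue), with the marker shape giving array 1 (circle), 2 (square) or 3 (triangle). The groups are apart for 5 genes, and AT1G44920 overlaps because WT column 4, listed at 0, is counted.

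In the fit over all 2908 tested probes, a probe was called when its limma p, adjusted by the Benjamini-Hochberg method, was under 0.05. All 6 genes were called lower in prors1, where 13.5% of all tested probes and 12.4% of the 581 tested genes with a probe of their own were called lower. That count follows from how the genes were chosen. As deposited, 1 of the 6, AT3G16760, was called lower, against 2.82% of all tested probes and 1.55% of the genes with a probe of their own, and the other 5 were below 0 without a call. Deposited intensities of all prors1 arrays lay below those of all WT arrays for 3 of the 6 genes and for 5.48% of 2867 probes with a value on every array. Normalized values did so for 6 of the 6 genes and 24.8% of the probes, and positions in the column for 5 of the 6 genes and 25.8% of the probes. All these counts come from the same columns on which the genes were chosen, so they are descriptions and no separate support.

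The normalized folds of the 6 genes lay close together, with a median log2 fold of -1.61 against -0.06 over all tested probes. Among the 72 genes with a probe of their own that were called lower, they took places 4, 6, 7, 8, 10 and 11 when ordered by fold. AT4G15840, the last of them, had a log2 fold of -1.43, and the next genes below it in that order were AT3G53580 at -1.40 and AT5G19050 at -1.39. Over all tested probes, named or not, the 6 stood between the 42nd and the 128th lowest fold. The genes were chosen on this fold, so their closeness, their median and these places follow from that choice. Of the 72 genes called lower, 52 also had an as-deposited fold below 0, and 6 of them were called lower as deposited.

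The direction of all 6 genes was the same under each scaling tried, while the size was not. Each scaling reworks the values on which the genes were chosen, so the shared direction is no sign of stability. Median scaling, which moves every probe of a column alike, gave log2 folds of -1.36 for AT1G44920 and -1.88 for AT3G16760. Cyclic loess, which aligns columns along the brightness scale, gave -1.29 for AT1G44920. A pseudocount of 0.0595 added to every value, with the 0 of WT column 4 kept, brought AT1G44920 to -0.74, AT1G01500 to -1.20 and AT3G47100 to -1.37. AT1G44920 thus ranged from -0.45 to -1.93 over these scalings, a wider range than that of any other of the 6 genes. AT4G15840 (-1.43, -1.55 and -1.42) and AT1G51080 (-1.64, -1.52 and -1.63) changed little between quantile normalization, median scaling and cyclic loess.

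**Figure D3:**
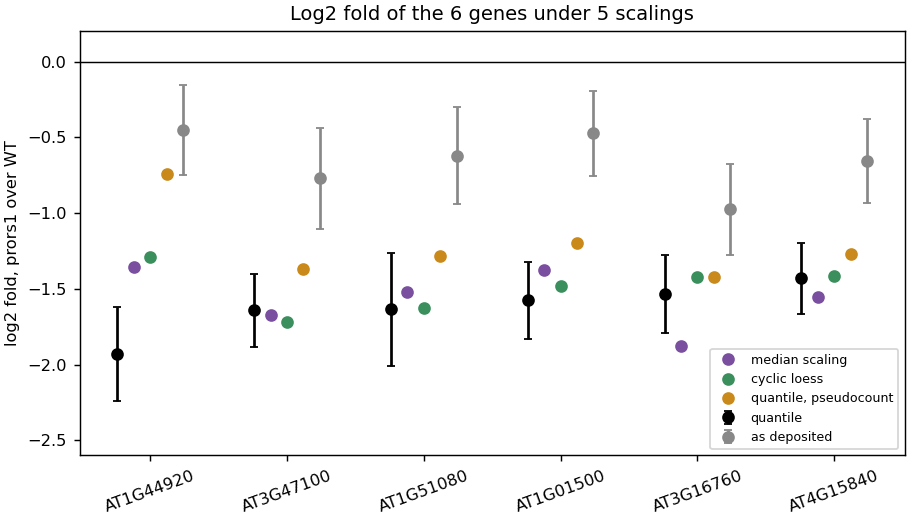
Log2 fold of prors1 over WT for the 6 genes under quantile normalization (with SE), median scaling, cyclic loess, quantile normalization with a pseudocount, and as deposited (with SE). All points lie below 0, from -1.93 to -0.45, for genes chosen for a low normalized fold in this comparison. The as-deposited point is the closest to 0 for every gene.

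The shift between the groups depended on brightness. When the tested probes were divided into 8 classes by their mean deposited log2 level, the median as-deposited log2 fold was 0.97 in the dimmest class, 1.05 in the third and 0.02 in the brightest. The 6 genes were spread over 6 of these classes and differed from the median of their own class by -1.67 to -1.42. AT3G47100 (-0.77 in a class with median 0.89) had 2 of 363 probes of its class below it, and AT1G51080 (-0.62 against 1.05) had 4 of 364. AT4G15840 had 8 of 364 below it, while AT1G01500 and AT3G16760 each had 11 of 363. AT1G44920, in the dimmest and most scattered class, had 34 of 364 probes below it (9.34%). The genes were chosen on their normalized fold in this comparison, so low places in their classes follow from that choice.

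**Figure D4:**
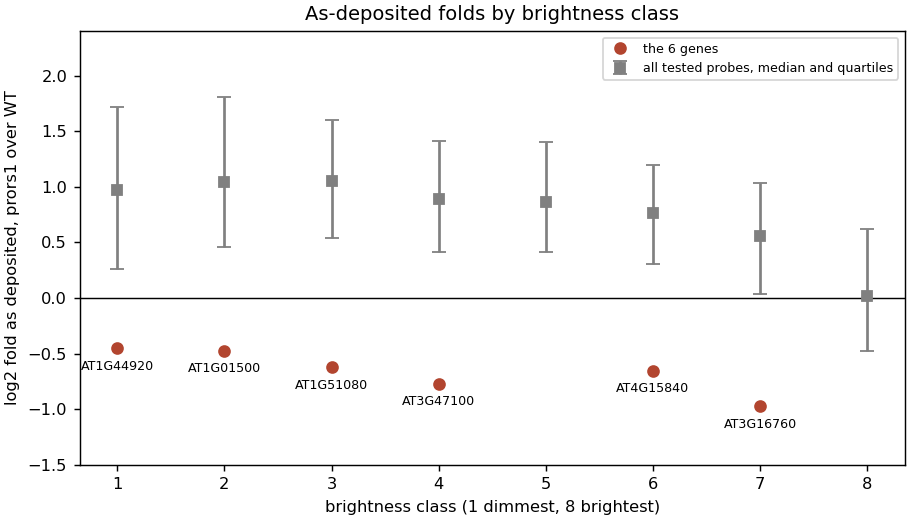
As-deposited log2 fold of prors1 over WT (vertical axis) in 8 brightness classes of 363 or 364 tested probes, with grey squares and bars for the median and quartiles of each class and red points for the 6 genes. The 6 genes, chosen for a low normalized fold in this comparison, lie between -0.97 and -0.45. Each is below the lower quartile of its class.

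The 6 genes differed in how much they varied between arrays of a group. The SD of normalized log2 values between arrays was 0.21 for AT4G15840, 0.23 for AT3G47100, 0.27 for AT1G01500 and 0.28 for AT3G16760, below the median of 0.34 over 2867 probes. It was 0.41 for AT1G44920 and 0.54 for AT1G51080, above that median. AT1G51080 deviated from its group mean by -0.63, -0.04 and 0.67 on prors1 arrays 1, 2 and 3 and by -0.36, -0.09 and 0.45 on the WT arrays, so array 1 was low and array 3 high in both groups. AT3G47100 went the other way, at 0.27, -0.13 and -0.14 on the prors1 arrays and 0.08, 0.17 and -0.26 on the WT arrays.

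Within groups the 6 genes did not vary as a block. Over the 6 arrays, deviations from the group means correlated (Pearson's r, given as a description) at -0.83 between AT3G47100 and AT1G51080 and at 0.86 between AT1G51080 and AT3G16760. AT1G01500 and AT4G15840 correlated at 0.82. Of the 15 pairs, 8 had an r above 0, and all 5 pairs with AT3G47100 were below 0. These arrays share their normalization and their numbering, and n is small.

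**Figure D5:**
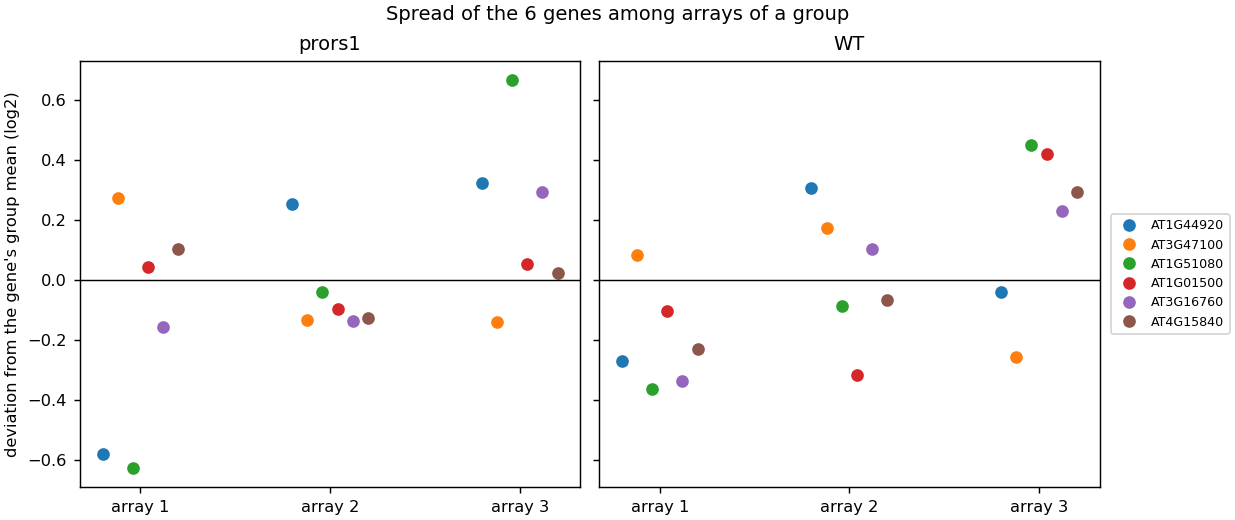
Deviation of each gene from its own group mean (normalized log2 values) on the 3 prors1 arrays (left) and the 3 WT arrays (right), 1 colour per gene. AT1G51080 runs from -0.63 to 0.67 over the prors1 arrays, and AT3G47100 takes the opposite sign to AT1G51080 on array 1 and array 3 of both groups.

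Genes with the most similar pattern were sought among 570 others with a probe of their own, by Pearson's r of normalized log2 values over the 6 arrays. This r contains the difference between the groups, and 36 to 63 genes reached an r above 0.9 with each of the 6, so the order among them is loose. AT3G16760 was closest to PRA1.B3 (AT5G05380, r = 0.999), a gene of the prenylated Rab acceptor family, and to AT3G15140 (0.997). AT1G51080 was closest to AT1G32730 (0.999) and AT4G26370 (0.990), and AT1G44920 to AT2G04360 (0.996) and AT3G11960 (0.988). Picking by an r over both groups also favours genes whose deviations inside the groups are alike, so those deviations are no separate support. They correlated at 0.92 to 0.997 for these 6 pairs, and at 0.89 and 0.74 for AT4G00170 and AT2G35490, named next.

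AT1G01500 was closest to AT4G00170 (r = 0.991) and then to AT4G15840 (0.987), whose own closest gene was AT1G01500, followed by AT2G35490 (0.987). AT3G47100 was closest to AT5G05330 (0.980) and AT5G03370 (0.978), and its deviations correlated with those of AT5G03370 at 0.40 only. All 12 genes named as closest, AT1G01500 and AT4G15840 among them, had normalized log2 folds below 0, from -0.76 for AT3G11960 to -3.32 for AT5G05330. That sign follows from picking them by an r that contains the difference between the groups. AT3G11960 was above 0 as deposited, at 0.17, while the other 11 were below 0 on both scales.

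Probes with neighbouring numbers may lie near each other on an array and share local effects, so the folds around each of the 6 were read as well. The layout of the array was not used, so neighbours here are neighbours in number only. Among tested probes within 50 numbers on either side, the median normalized log2 fold was -0.01 around AT1G44920, AT3G47100 and AT1G51080 and 0.05 around AT1G01500. It was -0.34 around AT3G16760 and -0.31 around AT4G15840. The share of neighbouring probes called lower was 23% around AT3G16760, 20.3% around AT4G15840 and 18% around AT1G01500. It was 13.6% around AT3G47100, 9.23% around AT1G44920 and 7.27% around AT1G51080, against 13.5% of all tested probes. The part of these neighbourhoods in the folds of the 6 genes was not tested.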

How the data were processed

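Single-channel array intensities of total RNA were analysed in 12 samples, 6 prors1 and 6 WT. The authors deposited the intensities on a linear scale from 0 to 100. No label or header names the scanner, background correction or scaling, and 0 columns were left without a sample. Column medians differed by 1.22 on the log2 scale, which is over the 0.1 set for normalizing. Values of 0 were set as missing. The log2 values of the 12 columns were then quantile normalized and averaged per array with limma 3.58.1 in R 4.3.3. Columns taken as the same array correlated at 0.951 to 0.961 in prors1 and 0.902 to 0.915 in WT. Columns of different arrays did so at 0.881 to 0.895 in prors1 and 0.840 to 0.878 in WT. The columns were paired by this same correlation, so higher values within pairs follow from the pairing and are no separate support for it. Probes above 0 in at least 4 of 6 columns per group were fitted by lmFit and eBayes, two-sided, with group as the only term. Folds are prors1 over WT. The procedure was tested on simulated data.

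Of the 3439 probes, 692 name 1 gene, 870 several and 1877 none in an annotation of 2016, and 690 of the 692 matched the TAIR10.1 gene table. That table holds no product text, so lists by protein family could not be formed, and no sequence was used here. The genes nearest in WT brightness are not named, since brightness does not compare between probes. Named are the 6 genes, the 2 closest genes in pattern to each, and the genes next to them by fold. The genes, lists and alternatives were chosen with earlier results of these data known. The number of arrays limits the precision.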

Additional observations from a re-analysis of the deposited data

How the results depend on the processing

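The 6 genes were selected on this fold, so their counts under other settings describe them and are no sign of stability. Of 99 such values, 99 were below 0 and 92 were called lower. Over all 2908 tested probes, 392 were called lower in the reported fit and 180 to 306 with 1 array left out. As deposited, log2 folds were -0.45 for AT1G44920, -0.77 for AT3G47100, -0.62 for AT1G51080, -0.47 for AT1G01500, -0.97 for AT3G16760 and -0.65 for AT4G15840, and 1 of the 6 was called, while 1332 probes were called in all (1250 higher, 82 lower), with a median log2 fold of 0.77 over all probes; the cause was not tested. For all 6 genes the as-deposited fold differed from the reported one by more than the spread between arrays. Other changes larger than that spread were those of AT1G44920 under median scaling (-1.36), cyclic loess (-1.29) and the pseudocount (-0.74). The rest were AT3G16760 under median scaling (-1.88), and AT1G01500 and AT3G47100 with the pseudocount (-1.20 and -1.37), and the cause was not tested. With 1 array left out, 5 to 6 of the 6 were called and 34 of 36 calls stood, with log2 folds from -2.10 to -1.64 for AT1G44920, -1.78 to -1.55 for AT3G47100, -1.97 to -1.32 for AT1G51080, -1.73 to -1.37 for AT1G01500, -1.70 to -1.42 for AT3G16760 and -1.55 to -1.28 for AT4G15840. The count over all probes, 764 in the reported fit, was then 393 to 562. It was lowest without prors1 array 2 (393), WT array 3 (446), prors1 array 1 (465) and WT array 1 (486); the cause was not tested. Counting 6 columns as separate samples gave 1443 calls, and 1532 with the column number as a replicate block. These 2 settings treat the paired columns as independent, and the cause of the higher counts was not tested. With the array number as a replicate block 840 probes and all 6 genes were called. Same-numbered arrays of the groups shared deviations with r of 0.183, 0.0827 and 0.238. The second is under 0.1, and the numbers were not used as a pairing, although no array correlated above -0.01 with another number of the other group. Deviations within a group sum to 0, so positive values for the same number by themselves bring lower values for other numbers. AT1G44920 has no value where every column must be above 0, and neither it nor AT1G01500 has one without the dimmest 25% of probes; the other genes stayed called there. No second probe names any of the 6 genes alone, so that alternative was not run.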
